A study of Mus musculus with 6 samples.

Results

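The genes described here were 9 regulators of methylation of histone H3 at lysine 9 (H3K9): the methyltransferases Suv39h1, Suv39h2, Setdb1, Setdb2, Ehmt1 and Ehmt2, and the cofactors Trim28, Atf7ip and Wiz. They were taken by gene symbol from the deposited table of 29199 genes, in which each was found, and all 9 were among the 18321 genes that passed the filter on low counts. The measurements were total RNA libraries of regulatory CD4+ T cells (Treg), 3 from grafts with wild-type conventional T cells (Treg with WT Tconv, the WT group) and 3 from grafts with HP1α-deficient conventional T cells (Treg with HP1α KO Tconv, the KO group). The comparison asked whether Treg carried different amounts of these transcripts when the Tconv beside them lacked HP1α.

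All hosts were irradiated male C57BL/6 J or congenic CD45.1+ B6 mice that received equal parts of B6 and semi-allogeneic B6D2F1 bone marrow depleted of T and NK cells. The Treg themselves were WT in both groups: they came from B6 mice with a Foxp3-Thy1.1 reporter, were sorted as CD4+CD25+Thy1.1+, were expanded in culture with IL-2, TGF-β1 and beads carrying anti-CD3 and anti-CD28, and were sorted again from the spleen 3 weeks after the graft by Thy1.1 and MHC class I type. The naive Tconv came either from mice in which a loxP-flanked Hp1a allele had been excised through a CMV-cre transgene, and so not only in T cells, or from WT littermates, on a mixed 129/Sv and C57BL/6 background. Mice were 6 to 12 weeks old. The labels do not say whether a library came from 1 animal or a pool, so the p-values measure the spread between these libraries, which may be technical. Cbx5, the gene that encodes HP1α, was not targeted in the Treg.

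Methylated H3K9 is the docking site of the HP1 proteins and marks silent chromatin. Suv39h1 and Suv39h2 write trimethylation in pericentromeric heterochromatin. Setdb1 writes the same mark elsewhere, mainly over retroelements, where the adaptor Trim28 brings it to sites bound by KRAB zinc finger proteins and Atf7ip keeps it stable and in the nucleus. Ehmt1 (GLP) and Ehmt2 (G9a) form a heterodimer that writes mono- and dimethylation in euchromatin, with the zinc finger protein Wiz as a partner. Setdb2 is a relative of Setdb1. In T helper cells, Suv39h1 and Setdb1 are known for keeping genes of alternative lineages silent.

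The 6 methyltransferases share the SET domain, and its conserved asparagine-histidine-cysteine motif (NHXCXPN, X being any residue) was found once in the longest coding sequence of each of the 6 and in none of the 3 cofactors. The coding bases are shown because this stretch sets the 6 enzymes apart from the 3 cofactors. Capitals mark the 21 bases that encode the motif, written 5′ to 3′ on the coding strand with 15 bases on either side, from the GRCm39 genome.
Suv39h1: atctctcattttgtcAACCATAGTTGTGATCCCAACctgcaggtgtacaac
Suv39h2: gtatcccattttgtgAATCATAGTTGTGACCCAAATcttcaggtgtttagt
Setdb1: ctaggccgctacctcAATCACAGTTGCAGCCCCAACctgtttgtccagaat
Setdb2: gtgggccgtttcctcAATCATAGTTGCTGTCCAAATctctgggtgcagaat
Ehmt1: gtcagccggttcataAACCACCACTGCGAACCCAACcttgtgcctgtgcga
Ehmt2: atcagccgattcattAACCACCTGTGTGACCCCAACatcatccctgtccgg

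Over the 21 motif bases, Suv39h1 and Suv39h2 matched at 17, Ehmt1 and Ehmt2 at 17, and Setdb1 and Setdb2 at 16. Likeness in these bases did not follow the pairs alone: Suv39h2 also matched Setdb2 at 17 bases and Suv39h1 matched Ehmt2 at 16. The fewest matches were the 10 between Setdb2 and Ehmt2. In Ehmt1 and Ehmt2 the motif lay within exon 26 of 27, at chr2:24682391-24682411 and chr17:35131667-35131687. In the other 4 enzymes an exon junction divided it: between exons 4 and 5 of 6 in Suv39h1 (chrX:7930053-7930158, intron included) and in Suv39h2 (chr2:3460912-3463526), between exons 20 and 21 of 22 in Setdb1 (chr3:95231687-95231943), and between exons 13 and 14 of 15 in Setdb2 (chr14:59644166-59646629).

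Library totals ranged from 87421755 to 119078882 estimated counts, and replicates differed beyond sampling noise. Levels are given as CPM, the count per 1e6 of a library total scaled by the TMM method of edgeR. The Treg label was checked on Foxp3, Il2ra, Ctla4, Ikzf2, Cd4 and Cd3e, whose summed level was 3802 to 4577 CPM, while 3 B cell markers summed to 0.741 to 6.88 CPM and 2 CD8 T cell markers to 5.83 to 8.85 CPM (marker sums are over unscaled totals). WT replicate 3 stood apart in markers of other cells: its 5 red cell markers summed to 5341 CPM against 365 to 678 CPM in the other 5 libraries, its 7 neutrophil markers to 1818 CPM against 41.0 to 225 CPM, and its 5 macrophage or monocyte markers to 177 CPM against 12.4 to 47.0 CPM. None of the markers on these lists was at 0 in every library.

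Transcripts of all 9 genes were present in every library, from Suv39h2 with 383 to 876 counts to Atf7ip with 14958 to 21935 counts. To compare genes with each other, CPM was divided by the length of the longest annotated transcript in kb. On this scale, Trim28 was at 51.2 CPM per kb ± 1.94 (SD over the 6 libraries), above 94.4% of all genes tested. Ehmt2 followed at 46.3 ± 3.26 CPM per kb, and the ranges of these genes overlapped, with 48.6 to 53.6 for Trim28 and 41.9 to 51.1 for Ehmt2. Atf7ip came next at 23.5 ± 2.94 CPM per kb, and no library of it reached the lowest value of Ehmt2.

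Setdb1 (11.5 ± 0.817 CPM per kb), Suv39h1 (9.76 ± 0.842) and Ehmt1 (9.22 ± 0.529) formed a middle group in which each neighbour overlapped the next. Setdb2 lay below them at 6.73 ± 0.325 CPM per kb, and Wiz at 3.20 ± 0.411. Suv39h2 was the lowest, at 1.07 ± 0.212 CPM per kb, a level above 33.9% of the genes tested. The highest and lowest ends of this order stayed when the length was taken over all annotated exons. There Trim28 (40.4 CPM per kb) and Ehmt2 (32.7) no longer overlapped, Atf7ip dropped to 9.10 and Ehmt1 stood above Suv39h1, so the middle of the order depends on which transcripts are used. With canonical transcript lengths, Setdb1 was at 16.6 CPM per kb and no longer overlapped the next gene, Ehmt1, at 10.4. The order between genes was read from ranges and was not tested.

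**Figure D1:**
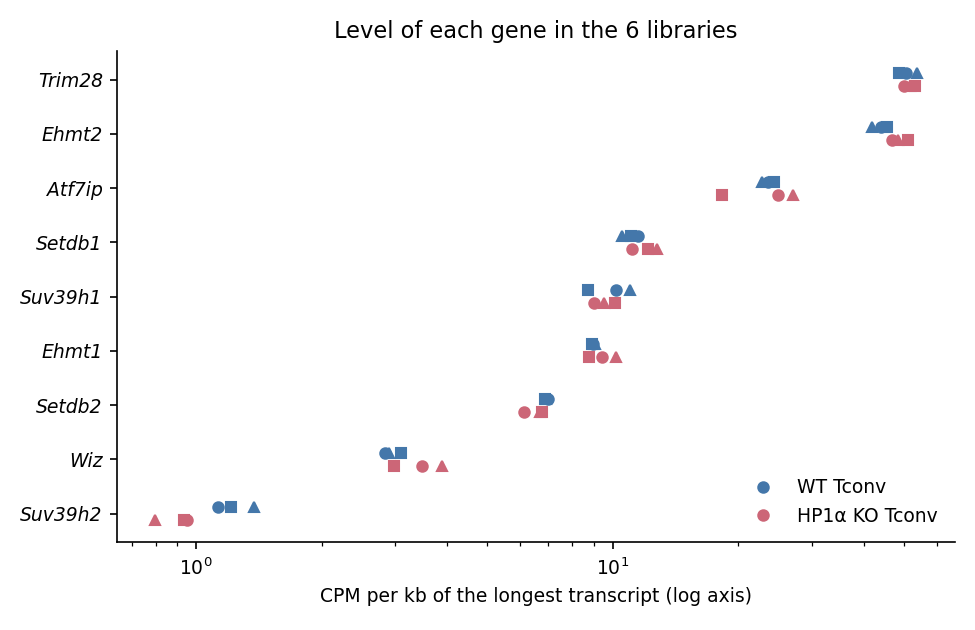
Level of each gene in CPM per kb of its longest transcript, on a log axis, with 1 point per library (circle, square and triangle for replicates 1, 2 and 3; WT group in blue, KO group in red). Trim28 and Ehmt2 sit at the top between 41.9 and 53.6, and Suv39h2 at the bottom between 0.798 and 1.38.

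Among the 6 methyltransferases, Ehmt2 made up the largest share of the RNA per length in each library, with 53.4% ± 1.68 (SD, n = 3) in the WT group and 55.9% ± 1.07 (SD, n = 3) in the KO group. Setdb1 held 13.5% ± 0.458 and 13.8% ± 0.601, Suv39h1 12.2% ± 1.5 and 10.95% ± 0.291, and Ehmt1 10.95% ± 0.211 and 10.9% ± 0.962 in the same order. The smallest shares were those of Setdb2, 8.47% ± 0.109 and 7.47% ± 0.134, and of Suv39h2, 1.51% ± 0.175 and 1.03% ± 0.119. These shares depend on the transcript lengths used.

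Between the groups, none of the 9 genes differed at an adjusted p under 0.05 in the quasi-likelihood F-test of edgeR with Benjamini-Hochberg adjustment over all genes tested. The background gives no contrast, since that test called 0 of the 18321 genes (0%). At an unadjusted p under 0.05, 2 of the 9 were called, Suv39h2 lower and Ehmt2 higher in the KO group, against 2656 of all genes (14.5%). The CPM of the groups did not overlap for 3 of the 9, Suv39h2, Setdb2 and Ehmt2, against 23.0% of all genes. DESeq2, run as an alternative, called 0 of the 9 at an adjusted p under 0.05 with 4.35% of its 12097 genes with an adjusted p called, and 1 of the 9 at an unadjusted p under 0.05, against 9.23% of its genes. These shares lie near the background, so the counts do not set the 9 genes apart. Of the log2 fold changes, all given as the KO group over the WT group, 5 were positive and 4 negative, with a median of 0.02 against -0.01 over all genes tested. Their median size without the sign was 0.09, against 0.17 over all genes. The genes were not matched on count level, so this contrast in size does not show that the 9 varied less. Without KO replicate 2 the median of the 9 was 0.12. In bulk RNA, fewer cells that carry a transcript and less of it per cell cannot be told apart.

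**Figure D2:**
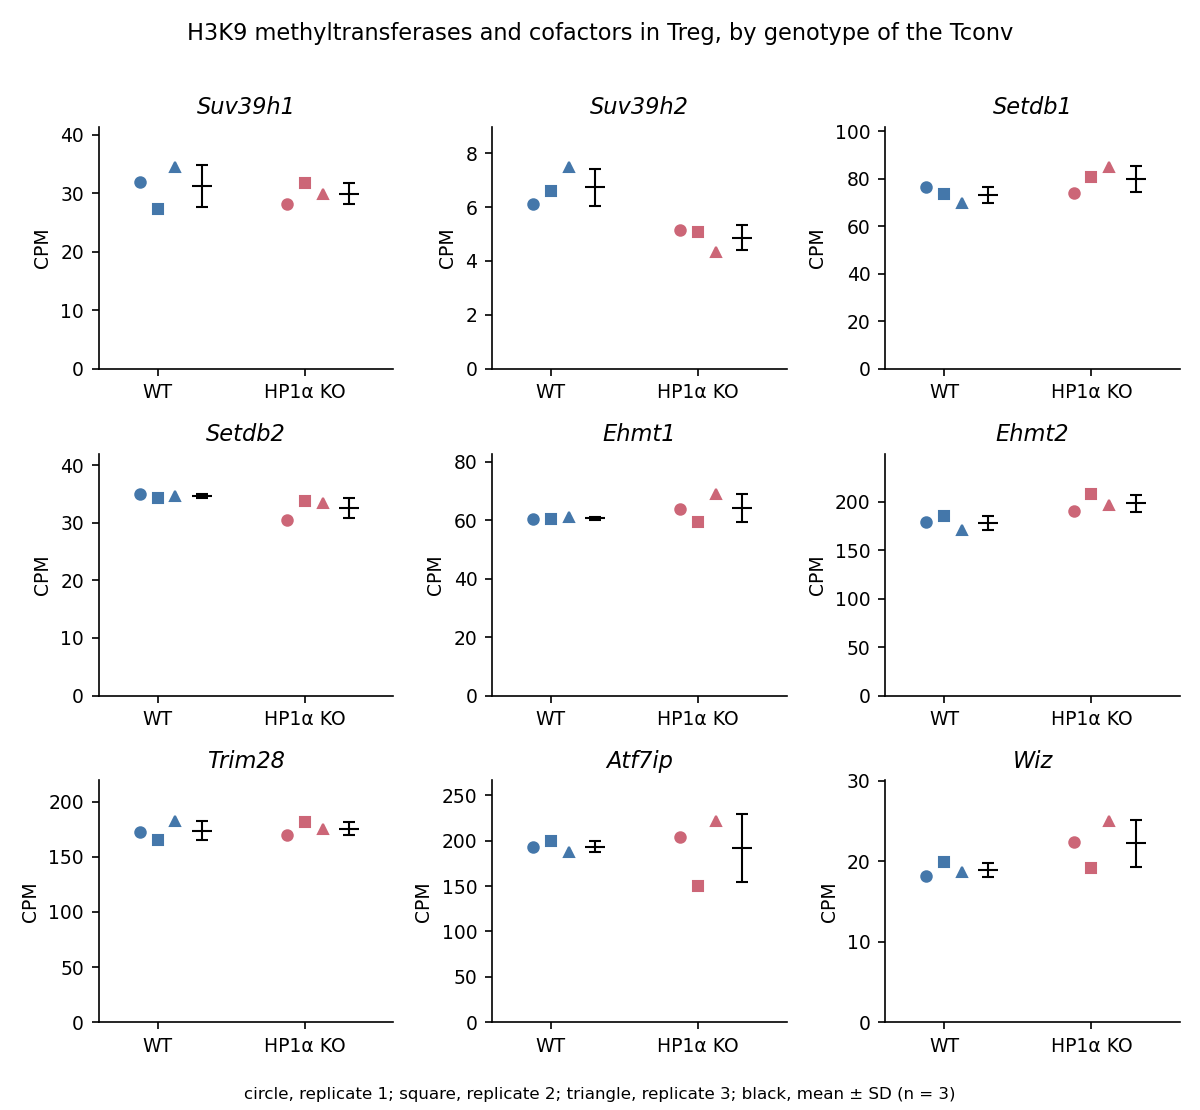
CPM of each gene by group, with 1 point per library (circle, square and triangle for replicates 1, 2 and 3) and the mean ± SD of 3 libraries in black, on linear axes that start at 0. The groups separate for Suv39h2, Setdb2 and Ehmt2, and 1 library of the KO group lies low for Atf7ip, at 150 CPM.

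Suv39h2 (ENSMUSG00000026646, chromosome 2, 3455774 to 3476146, minus strand) had the largest log2 fold change of the 9, without regard to sign. Its CPM in replicates 1, 2 and 3 was 6.12, 6.60 and 7.48 in the WT group and 5.17, 5.09 and 4.34 in the KO group. Every KO library lay below every WT library. The means were 6.73 CPM ± 0.693 in the WT group and 4.86 CPM ± 0.457 in the KO group (SD, n = 3), a fold of 0.723 with a 95% interval of 0.58 to 0.90. On the log2 scale this was -0.47 (standard error 0.138), with an unadjusted p of 0.00905 and an adjusted p of 0.229 in edgeR, so the difference did not pass the test over all genes. In DESeq2 the adjusted p was 0.0653. Over 20 alternative settings the log2 fold change stayed negative, from -0.54 to -0.39, with adjusted p from 0.0341 to 0.456. The lowest of these came from DESeq2 without KO replicate 2, the only setting of the 20 in which Suv39h2 passed 0.05, and one that called 1413 genes in all (11.3%) against 526 with every library.

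The library highest for Suv39h2 was WT replicate 3, the one with the markers of other cells, and without it the log2 fold change was -0.39 with an unadjusted p of 0.0317 in edgeR. That library was also the highest for a list of 10 proliferation genes, which summed to 1822, 1511 and 2389 CPM in the 3 libraries of the WT group and to 1721, 1710 and 1830 CPM in those of the KO group. The proliferation sums overlapped between the groups, and their part in the values of Suv39h2 or Suv39h1 was not tested. Suv39h2 also shares 50.3% of its annotated exonic bases, and 18.0% of its longest transcript, with exons of Dclre1c, a DNA repair nuclease gene on the opposite strand. Whether the counting used strand is not given in the sources used here. Dclre1c was at 26.3 CPM ± 1.39 and 24.8 CPM ± 0.604 (SD, n = 3), with overlapping groups. Its log2 fold change was -0.08, with an adjusted p of 0.642 in edgeR. The sum of both genes was 33.05 CPM ± 0.696 and 29.7 CPM ± 0.861, without overlap between the groups. This sum contains the Suv39h2 values that chose this description, so it is no separate check of shared reads.

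Its paralog Suv39h1 (ENSMUSG00000039231, chromosome X, 7927403 to 7940999, minus strand) showed no such separation. It was at 31.9, 27.4 and 34.4 CPM in the WT group and at 28.1, 31.8 and 29.9 CPM in the KO group. The lowest and the highest of the 6 values both belonged to the WT group, in the same replicates, 2 and 3, that were lowest and highest for the proliferation list. The log2 fold change was -0.06 (95% interval -0.29 to 0.17) with an adjusted p of 0.808 in edgeR, and it became 0.02 without WT replicate 3. Per length, the ratio of Suv39h2 to Suv39h1 was 0.111, 0.139 and 0.125 in the WT group and 0.106, 0.0922 and 0.0836 in the KO group. These ratios did not overlap between the groups, and they share the Suv39h2 values that chose this description, so no test was made of them.

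The promoter of Suv39h2 is shown because this gene and Ehmt2 were the ones with an unadjusted p under 0.05. The window runs from 250 bases before to 50 after the RefSeq start, at chr2:3474937-3475236 on the minus strand of GRCm38.p6. Capitals mark matches, on either strand, to the GC box GGGCGG (3 matches, also found in 35.7% of all 32851 promoter windows), the cAMP response element TGACGTCA (1 match, 1.79% of windows) and the YY1 motif AANATGGC (1 match, 6.05% of windows).
Suv39h2 promoter: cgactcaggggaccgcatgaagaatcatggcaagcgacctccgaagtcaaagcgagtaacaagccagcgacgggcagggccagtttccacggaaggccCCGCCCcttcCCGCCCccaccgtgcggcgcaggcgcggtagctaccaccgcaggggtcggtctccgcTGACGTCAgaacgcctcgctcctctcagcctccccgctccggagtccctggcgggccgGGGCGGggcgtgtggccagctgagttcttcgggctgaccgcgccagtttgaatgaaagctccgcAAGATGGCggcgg

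Ehmt2 (ENSMUSG00000013787, chromosome 17, 35117256 to 35133048, plus strand), the catalytic partner of Ehmt1, was higher in the KO group by a small amount. Its CPM in replicates 1, 2 and 3 was 179, 185 and 171 in the WT group and 191, 208 and 197 in the KO group. The groups did not overlap, and the gap between the highest WT value and the lowest KO value was smaller than the SD within either group. The means were 178 CPM ± 7.13 and 199 CPM ± 8.75 (SD, n = 3), a fold of 1.11. On the log2 scale this was 0.16 (standard error 0.0657), with an unadjusted p of 0.0437 and an adjusted p of 0.33 in edgeR. DESeq2 gave an unadjusted p of 0.0751, and edgeR without a filter beyond 1 count gave 0.0584. The sign was positive in all 20 alternative settings, from 0.12 to 0.20, but when each library was left out in turn in edgeR the unadjusted p stayed under 0.05 in 2 of 6 fits, with a range of 0.0391 to 0.137. It exceeded 0.05 without WT replicate 1 (0.0794), WT replicate 3 (0.137), KO replicate 2 (0.0733) or KO replicate 3 (0.0734).

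Ehmt1 (ENSMUSG00000036893, chromosome 2, 24679940 to 24809696, minus strand) was at 60.6, 60.3 and 61.2 CPM in the WT group and at 63.9, 59.4 and 69.0 CPM in the KO group. The 3 WT libraries lay within 1 CPM of each other, and the KO libraries spread on both sides of them. Ehmt1 had a log2 fold change of 0.08 (95% interval -0.09 to 0.25) with an adjusted p of 0.654 in edgeR, and it was 0.02 without KO replicate 3 and 0.13 without KO replicate 2. Per length, the ratio of Ehmt1 to Ehmt2 was 0.205 ± 0.00977 in the WT group and 0.195 ± 0.0203 in the KO group, and the groups overlapped. The difference of -0.0105 was -0.00528 without WT replicate 3 and turned positive (0.000912) without KO replicate 2.

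Wiz (ENSMUSG00000024050, chromosome 17, 32572090 to 32608413, minus strand), the zinc finger partner of this heterodimer, was at 18.2, 19.9 and 18.6 CPM in the WT group and at 22.4, 19.2 and 25.0 CPM in the KO group. KO replicates 1 and 3 lay above all WT libraries, and replicate 2 lay among them. Its log2 fold change of 0.23 had a standard error of 0.109, a 95% interval of -0.02 to 0.48 and an adjusted p of 0.384 in edgeR. Without KO replicate 2 it was 0.33, with an adjusted p of 0.17 in edgeR and 0.0158 in DESeq2 (0.0158 to 0.684 over the 20 alternatives). That DESeq2 fit called 11.3% of all genes. Without KO replicate 3 the log2 fold change was 0.14, with an adjusted p of 0.684 in edgeR. Per length, Wiz was at 0.0673 ± 0.00256 of Ehmt2 in the WT group and at 0.071 ± 0.0114 in the KO group. The groups overlapped, and the difference of 0.00378 became -0.000902 without KO replicate 3 and 0.0102 without KO replicate 2.

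RefSeq lists a pair of start windows for Ehmt2, at chr17:34898224-34898523 and chr17:34898720-34899019 on the plus strand of GRCm38.p6. Capitals mark GC boxes as above, the E-box CACGTG (7.15% of all windows) and, in the first window, a YY1 motif match. Of the 9 genes, an E-box match was found in Ehmt2 only, a cAMP response element match in Suv39h2 only, and a YY1 match in Ehmt2, Suv39h1, Suv39h2 and Wiz.
Ehmt2 promoter, first window: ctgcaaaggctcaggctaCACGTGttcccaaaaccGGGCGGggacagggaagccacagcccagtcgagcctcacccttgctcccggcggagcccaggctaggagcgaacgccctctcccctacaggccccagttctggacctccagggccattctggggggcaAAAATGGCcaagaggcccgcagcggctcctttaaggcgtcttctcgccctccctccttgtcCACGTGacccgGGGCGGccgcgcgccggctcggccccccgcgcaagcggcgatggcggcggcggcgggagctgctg
Ehmt2 promoter, second window: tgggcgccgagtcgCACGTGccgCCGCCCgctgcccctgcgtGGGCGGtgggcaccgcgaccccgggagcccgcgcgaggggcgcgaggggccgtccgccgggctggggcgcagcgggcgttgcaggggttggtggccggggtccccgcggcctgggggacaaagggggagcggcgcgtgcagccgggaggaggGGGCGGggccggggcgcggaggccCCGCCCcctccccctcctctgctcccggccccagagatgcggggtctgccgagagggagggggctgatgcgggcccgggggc

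The 14 promoter windows of the 9 genes held 3 to 40 CpG dinucleotides, with a median of 28.5 against 7 over all windows, and their GC content ran from 47.7% to 82.7% against a median of 52.7%. A GC box was found in 8 of the 9 genes and 11 of their 14 windows (35.7% of all windows). A CCAAT box (letters CCAAT) was found in 5 genes and 6 of the 14 windows (37.4% of all windows). The E2F motif TTTNNCGC (5.17% of windows) occurred in Suv39h1 and the ETS motif CCGGAAG (8.86%) in Setdb1. The TATA box TATAAA, found in 13.6% of windows, occurred in 0 of the 9. All motifs were searched on both strands. These matches describe letters in a window and not factor binding.

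**Figure D3:**
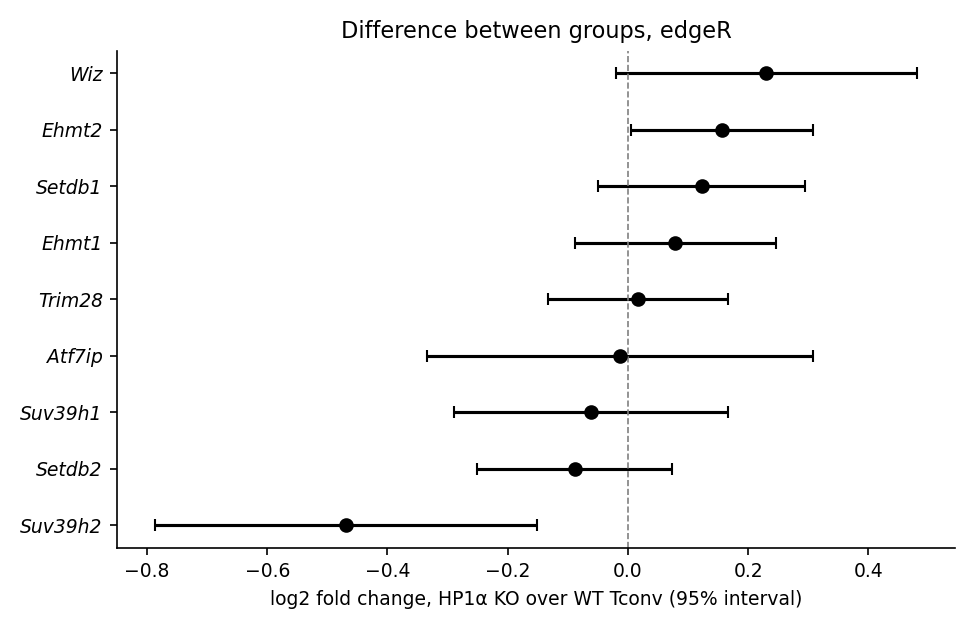
Log2 fold change of each gene, KO group over WT group, with its 95% interval from the edgeR fit, ordered by value. The intervals of Suv39h2 (-0.79 to -0.15) and Ehmt2 (0.01 to 0.31) exclude 0 before adjustment over all genes and those of the other 7 include it. The signs of Atf7ip, Trim28 and Suv39h1 turned when single libraries were left out.

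Setdb1 (ENSMUSG00000015697, chromosome 3, 95229399 to 95264541, minus strand) was at 76.5, 73.7 and 69.8 CPM in the WT group and at 74.0, 80.7 and 84.9 CPM in the KO group. KO replicates 2 and 3 exceeded all WT libraries, and replicate 1 lay among them. The log2 fold change was 0.12 (95% interval -0.05 to 0.30) with an adjusted p of 0.498 in edgeR, and it stayed positive in the 20 alternatives, from 0.08 to 0.19. A near-identical gene in the table, Gm4349, matches its transcript over 412 bases at an identity of 99.8% and held a mean of 53 counts, against 6725 to 8169 for Setdb1.

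Setdb2 (ENSMUSG00000071350, chromosome 14, 59637727 to 59678557, minus strand) was at 35.0, 34.3 and 34.6 CPM in the WT group and at 30.5, 33.8 and 33.4 CPM in the KO group. The groups did not overlap, with replicates 2 and 3 of the second group close below the first and replicate 1 further down. The log2 fold change was -0.09 (95% interval -0.25 to 0.07), its unadjusted p was 0.244 and its adjusted p 0.60 in edgeR. Without KO replicate 1 the log2 fold change was -0.03.

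The differences of Setdb1 and Setdb2 had opposite signs and neither passed the test, and their ratio was computed per length in each library. Setdb2 stood at 0.608, 0.62 and 0.66 of Setdb1 in the WT group and at 0.549, 0.558 and 0.523 in the KO group. The means were 0.629 ± 0.0269 and 0.543 ± 0.0178 (SD, n = 3), and the groups did not overlap. The ratio was formed after the values of both genes were known, so it is a description without a test.

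**Figure D4:**
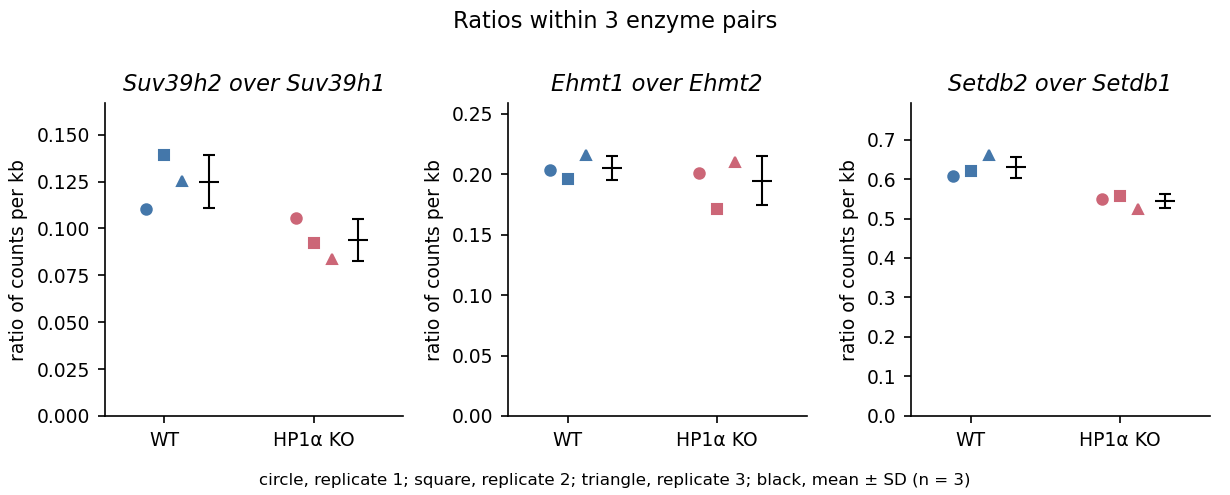
Ratio of counts per kb of the longest transcript within each enzyme pair, by group, with 1 point per library and the mean ± SD of 3 libraries in black, on axes that start at 0. Suv39h2 over Suv39h1 and Setdb2 over Setdb1 separate the groups, and Ehmt1 over Ehmt2 does not.

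Trim28 (ENSMUSG00000005566, chromosome 7, 12733041 to 12764976, plus strand), the adaptor that links KRAB zinc finger proteins to Setdb1, was at 172, 165 and 183 CPM in the WT group and at 170, 181 and 175 CPM in the KO group. All KO values lay inside the WT range. Its log2 fold change was 0.02 (95% interval -0.13 to 0.17) with an adjusted p of 0.927 in edgeR. Trim28 shares 67.8% of its annotated exonic bases with Chmp2a, an ESCRT-III subunit gene on the opposite strand, which had a log2 fold change of 0.06 and an adjusted p of 0.744. Per length, the ratio of Trim28 to Setdb1 was 4.63 ± 0.415 in the WT group and 4.30 ± 0.234 in the KO group, with overlapping groups. The difference of -0.329 between these means was -0.0888 without WT replicate 3.

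Atf7ip (ENSMUSG00000030213, chromosome 6, 136483165 to 136587860, plus strand), the stabilizing partner of Setdb1, was at 193, 200 and 187 CPM in the WT group and at 204, 150 and 222 CPM in the KO group. The second group held both the lowest and the highest of the 6 values, with an SD of 37.5 CPM against 6.32 CPM in the WT group. The log2 fold change was -0.01 (95% interval -0.33 to 0.31) with an adjusted p of 0.976 in edgeR. Without KO replicate 2 it was 0.14, with an adjusted p of 0.333, and under scaling by upper quartiles or by library totals it was 0.01 or 0.02. The standard error of 0.137 was close to that of Suv39h2, although the lowest count of Atf7ip was 14958 and that of Suv39h2 was 383. In the same replicate 2, 4 of the 6 Treg markers were also at their lowest of the 6 libraries, Foxp3 at 154 CPM, Il2ra at 121 CPM, Cd4 at 688 CPM and Cd3e at 146.5 CPM, while Ctla4 at 1018 CPM and Ikzf2 at 1822 CPM were above KO replicate 3 (798 and 1469 CPM). The part of these genes in the Atf7ip value was not tested. Ctla4 was also lower in every KO library (1028, 1018 and 798 CPM) than in any WT library (1246, 1349 and 1112 CPM). Its log2 fold change was -0.38, with an adjusted p of 0.232 in edgeR and 0.0414 in DESeq2, which called 4.35% of all genes. The other Treg markers had adjusted p from 0.467 to 0.998 in DESeq2. Atf7ip2, a paralog of Atf7ip, was at 0.0633 and 0.0304 CPM and did not pass the filter. Per length, the ratio of Atf7ip to Setdb1 was 2.14 ± 0.0857 in the WT group and 1.95 ± 0.391 in the KO group, where replicate 2 stood at 1.505, and the sign of the difference turned without that library (0.0349).

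To see which genes varied alike, each gene's log2 CPM was centred on its mean over the 6 libraries, and profiles were compared by the root mean square of their difference. Among the 36 pairs of the 9 genes this difference ran from 0.06 for Setdb1 and Ehmt2 to 0.40 for Suv39h2 and Wiz, with a median of 0.15. KO replicate 3 was the highest library for 4 of the 9 genes, Setdb1, Ehmt1, Atf7ip and Wiz, and the lowest for Suv39h2. WT replicate 3 was the highest for Suv39h1, Suv39h2 and Trim28. The share of all tested genes highest in each library was not computed, so these counts do not set the 9 genes apart.

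**Figure D5:**
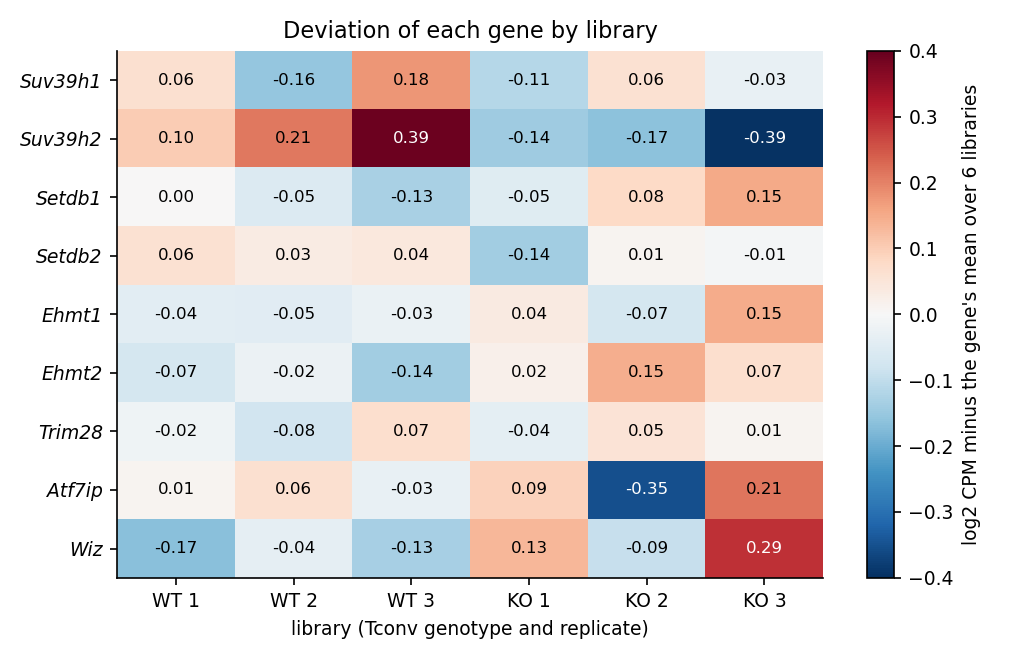
Log2 CPM of each gene in each library after subtraction of its mean over the 6 libraries, with the value printed in each cell. Suv39h2 is positive in the 3 WT libraries and negative in the 3 KO libraries, and Atf7ip is at -0.35 in KO replicate 2.

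By the same measure over 6 libraries, the tested gene most like each of the 9 was also found. For Suv39h2 it was 1700028N14Rik, with a difference of 0.03 and 99 genes within 0.1. For Ehmt2 it was Clcn7 (0.01, with 2845 genes within 0.1), and for Atf7ip it was Dock8 (0.02, with 590). The nearest genes of the others were Erf for Suv39h1, Mdfic for Setdb1, Rpp30 for Setdb2, Cog1 for Ehmt1, Ran for Trim28 and Lrrc8a for Wiz, at 0.02 to 0.03. The profiles rest on 6 values that share the group difference and the library scaling, and their likeness was not tested.

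The other genes of the pathway were read from a list of 29, of which 28 passed the filter. None of the 28 had an adjusted p under 0.05 in edgeR, and 4 had an unadjusted p under 0.05, Kdm4b higher and Cbx3, Jmjd1c and Kdm7a lower in the KO group, beside 14.5% of all genes. DESeq2 called 3 of the 28 at an adjusted p under 0.05, namely Jmjd1c, Cbx3 and Kdm7a, beside its 4.35% of all genes. The log2 fold changes ran from -0.46 to 0.24 with a median of -0.03, 12 of them positive and 16 negative, and the groups did not overlap for 7, beside 23.0% of all genes. The counts at an unadjusted p and without overlap are at the background.

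Of the HP1 proteins, the readers of the mark, Cbx3 (HP1γ) was at 206, 205 and 211 CPM in the WT group and at 175, 159 and 178 CPM in the KO group. The groups were separated by more than the spread within either of them, and the log2 fold change was -0.28 (standard error 0.0663). Its adjusted p was 0.209 in edgeR and 0.0318 in DESeq2, with a range over the 20 alternatives of 0.000354 to 0.437. Cbx1 (HP1β) had a log2 fold change of -0.16 and Cbx5 (HP1α) one of -0.17, with adjusted p of 0.517 and 0.534 in edgeR, and their groups overlapped. Cbx1 was at -0.05 without KO replicate 2, and Cbx5 was at -0.09 without WT replicate 3 and at -0.27 without WT replicate 2.

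Of the 10 genes listed as H3K9 demethylases, 2 were called lower and 1 higher at an unadjusted p under 0.05 in edgeR. The share over all genes in either direction was 14.5%, and 0 of the 10 had an adjusted p under 0.05. The list does not show that each of these genes erases the mark. Jmjd1c, a member of the KDM3 family, was at 379, 390 and 423 CPM in the WT group and at 305, 293 and 269 CPM in the KO group. Every KO library lay below every WT library for this gene. Its log2 fold change was -0.46 (standard error 0.0765), and its adjusted p was 0.209 in edgeR and 0.000354 in DESeq2 (3.04e-05 to 0.437 over the 20 alternatives). Kdm7a, a PHD finger demethylase, had means of 178 CPM ± 11.9 and 134 CPM ± 21.7 (SD, n = 3). Its log2 fold change was -0.40, with adjusted p of 0.23 in edgeR and 0.0356 in DESeq2 (0.00792 to 0.437 over the alternatives). Kdm7a was at 109 CPM in KO replicate 2 and at 147 CPM in KO replicates 1 and 3. Without KO replicate 2 its log2 fold change was -0.28 in edgeR. Kdm4b, a demethylase of trimethylated H3K9, had means of 38.4 CPM ± 1.44 and 44.4 CPM ± 1.64, with a log2 fold change of 0.21 and an adjusted p of 0.241 in edgeR (0.0358 to 0.483 over the alternatives). Kdm3b, of the same family as Jmjd1c, had a log2 fold change of 0.19 with overlapping groups and an adjusted p of 0.408 (0.0358 to 0.684 over the alternatives). It was at 0.11 without KO replicate 1.

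The remaining genes of the list held no call. Of the 4 genes of the HUSH complex and Morc2, which work with Setdb1 in silencing, 0 had an unadjusted p under 0.05 (14.5% of all genes), with log2 fold changes from -0.13 to 0.14. The same held for 4 partners of Ehmt1 and Ehmt2, from -0.12 to 0.05, among them the zinc finger gene Zfp644 at -0.12 with an adjusted p of 0.443 in edgeR. It also held for 4 tested partners of Trim28 and Setdb1, from -0.10 to 0.24, the highest being Hdac1 (named after its values were seen), at 118 CPM in KO replicate 2 and 73.9 to 79.4 CPM in the other 5 libraries. The 3 genes that link H3K9 methylation to maintenance of DNA methylation held no such call either, from -0.09 to 0.10, among them Dnmt1 at 0.10 with an adjusted p of 0.571. Dnmt1 was at 0.05 without KO replicate 3 and at 0.15 without KO replicate 2.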

How the data were processed

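The authors prepared stranded libraries from total RNA and, within the nf-core pipeline, trimmed reads with Trim Galore, mapped them by STAR to GRCm39 with the Ensembl annotation, and quantified genes by Salmon. The strand setting of the counting is not given in the sources used here. What was deposited are estimated counts, whole numbers without normalization. Estimated counts share ambiguous reads between overlapping or near-identical genes by a model. In the deposited table, 64 genes without a symbol held 0.0231% of the counts.

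The test was glmQLFTest of edgeR (quasi-likelihood F, version 4.0.16, R version 4.3.3), with TMM scaling, the filterByExpr filter, robust estimation and group as the sole term. P-values were adjusted by Benjamini-Hochberg over 18321 genes. Each standard error is the size of the log2 fold change divided by the root of F. Pairing by replicate number was not used, since the labels tie no numbers to shared animals or days.

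The 9 genes, the lists and the tests were chosen with earlier results of these data known. Named in the text were the 9 genes; Cbx1, Cbx3 and Cbx5; the 3 other pathway genes per direction with the smallest unadjusted p; the gene most like each of the 9; and the nearest and farthest pair among them. Overlapping genes were named after their values were seen. Ctla4 and the other Treg markers described singly are outside this list. Promoters were printed for genes with an unadjusted p under 0.05, and the planned protein sequences were not used here.

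Alternatives were limma-voom (limma version 3.58.1), DESeq2 (version 1.42.0, alpha of 0.1 for its filtering), other scalings (RLE, upper quartile, library totals), 2 other filters on counts, a block for the replicate number, each library left out in turn, and other transcript lengths. Leaving out libraries in DESeq2 and the canonical transcript lengths were chosen after seeing the data. The fits were tested on data simulated once per size of change, with few genes changed. There, edgeR and DESeq2 both missed most changes about as large as that of Suv39h2. At that size DESeq2 made more false calls than true ones in the simulated data. These libraries differ from that setting, so its error rates are not carried over to the calls given here. The lack of a call does not show that a gene was unchanged. Profiles were compared on log2 CPM with 0.5 counts added. Positions came from a GENCODE annotation of GRCm39 that matched 28854 of 29199 identifiers, and promoters from RefSeq in GRCm38.p6.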

Additional observations from a re-analysis of the deposited data

How the results depend on the processing

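Each log2 fold change was recomputed under 20 alternatives. Suv39h2, Setdb1, Setdb2, Ehmt1, Ehmt2 and Wiz kept their signs in all 20. The count of the 9 genes with an adjusted p under 0.05 was 0 in all alternatives but 1: with single libraries left out it ran from 0 to 2, the 2 being Suv39h2 and Wiz in DESeq2 without KO replicate 2, which called 1413 of all genes against 526 with every library. The count at an unadjusted p under 0.05 was 1 in DESeq2 (9.23% of all genes), 3 with upper quartile factors (2550 of 18321 genes) and with library totals (2780 of 18321), where Wiz joined with p of 0.0469 and 0.0335, and ran from 1 to 2 with single libraries left out (1960 to 3087 of all genes in edgeR, 2232 to 3544 in DESeq2). In edgeR without a filter beyond 1 count the number stayed at 2 (2883 of 29199 genes), but Wiz (p of 0.0482) replaced Ehmt2 (p of 0.0584). The same exchange occurred in edgeR without KO replicate 2, with p of 0.00692 for Wiz and 0.0733 for Ehmt2. The median log2 fold change of the 9 ran from 0.0094 to 0.116 with single libraries left out, and the high end came from edgeR without that same library. Pathway genes with an adjusted p under 0.05 numbered 3 in DESeq2, 1 (Jmjd1c) in edgeR without a filter beyond 1 count, which called 38 of all genes, and 0 to 5 with single libraries left out (181 to 1413 of all genes in DESeq2), the 5 again in DESeq2 without KO replicate 2. The log2 fold change of Atf7ip turned positive with upper quartile factors (0.0054) and library totals (0.023), and ran from -0.13 to 0.14 with libraries left out. That of Trim28 ran from -0.0182 to 0.0558 and that of Suv39h1 from -0.15 to 0.016. The causes were not tested. Scaling moved the median of all genes to at most 0.03 on the log2 scale.

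Same-numbered libraries deviated together with correlations of -0.04, 0.18 and 0.12 for numbers 1, 2 and 3, and not every library was closest to its own number, so the numbers were not taken to pair them. With the replicate number as a block, 0 of the 9 genes had an adjusted p under 0.05 and 1 had an unadjusted p under 0.05, Suv39h2, beside 2080 of 18321 genes, and 1 of all genes tested had an adjusted p under 0.05. Suv39h2 had the lowest counts of the 9, 383 to 876.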
